A study of Mus musculus with 51 samples.

Results

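The genes described here are 10 members of the T-box family of transcription factors, *T* (brachyury), *Eomes*, *Tbx1*, *Tbx2*, *Tbx3*, *Tbx4*, *Tbx5*, *Tbx6*, *Tbx18* and *Tbx20*. They were taken by symbol from RNA-seq tables of 24538 genes, and all 10 were listed in each of the 9 tables. The 18 RNA samples are mouse ES cells and mesodermal (ME) cells grown from them as aggregates in medium with 20 ng/ml Bmp4. F1G4 WT cells were taken in the ES state, before Bmp4, and on days 1, 2 and 3, with 2 samples per stage. *Eomes* KO, *T* KO and *Eomes*/*T* double KO (dKO) cells of the F1G4 strain were taken on days 2 and 3, and *Smad4* KO and *Smad4* WT cells of the strain 129S/SvEvxC57BL/6 on days 1 and 2, with 1 sample each. In the *Eomes* KO and *T* KO lines the promoter and the first exon had been targeted with paired Cas9(D10A) nickases, and the dKO line was derived from the *Eomes* KO line in the same way, so it carries the *Eomes* deletion too. The *Smad4* KO cells lack exon 1 after Cre expression in cells with conditional *Smad4* alleles, and their *Smad4* WT controls carry the conditional alleles intact. The KO lines were grown from single clones, so a property of the clone and an effect of the deletion cannot be told apart.

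T-box factors bind DNA through a shared domain, the T-box. In the gastrulating embryo *Eomes* and *T* are switched on in the primitive streak, where Nodal/Activin, BMP and WNT signals meet, and both are needed to form mesoderm. *Tbx6* acts in the mesoderm beside the neural tube, whereas *Tbx1*, *Tbx2*, *Tbx3*, *Tbx5*, *Tbx18* and *Tbx20* act later in the heart and its surroundings, and *Tbx4* in the hindlimb. *Tbx3* is also expressed in ES cells.

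The promoters of *T*, *Eomes* and *Tbx6* are shown because the first pair was targeted in the KO lines and because *Tbx6* is the streak and mesoderm member whose day 3 values are examined library by library below. The sequences are the 250 bases before a transcript start in the RefSeq promoter table, 5′ to 3′ on the + strand of GRCm38.p6, at chr17:8434173-8434422 for *T*, chr9:118477939-118478188 for *Eomes* and chr7:126781233-126781482 for *Tbx6*. For *Eomes* that start lies inside the annotated gene, which holds the last 3 bases of the window. Capitals mark matches, on either strand, to the motifs listed after them.

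T: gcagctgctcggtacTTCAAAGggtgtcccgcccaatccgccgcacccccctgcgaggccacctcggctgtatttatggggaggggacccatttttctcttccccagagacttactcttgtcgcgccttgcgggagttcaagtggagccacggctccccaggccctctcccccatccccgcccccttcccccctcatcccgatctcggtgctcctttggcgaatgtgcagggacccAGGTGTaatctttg
Eomes: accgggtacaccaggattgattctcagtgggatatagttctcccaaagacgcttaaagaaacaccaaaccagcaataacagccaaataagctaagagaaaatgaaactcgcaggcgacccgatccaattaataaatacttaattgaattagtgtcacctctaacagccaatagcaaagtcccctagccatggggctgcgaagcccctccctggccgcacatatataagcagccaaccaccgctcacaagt
Tbx6: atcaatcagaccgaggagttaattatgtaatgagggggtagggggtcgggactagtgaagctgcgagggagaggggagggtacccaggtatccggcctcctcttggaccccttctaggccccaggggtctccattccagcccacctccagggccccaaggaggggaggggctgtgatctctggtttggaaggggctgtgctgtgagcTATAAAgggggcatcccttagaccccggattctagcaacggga

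The motifs searched were the T-box site GGTGTGA, its shorter core AGGTGT (which overlaps it), the Tcf/Lef site CTTTGAN, the Smad palindrome GTCTAGAC, the Foxh1 site TGTGGATT and the TATA box TATAAA. Both strands were searched. The *T* window held a Tcf/Lef match on the − strand, 235 to 229 bases before the start, and an AGGTGT match on the + strand, 14 to 9 bases before it. The *Tbx6* window held the letters TATAAA 43 to 38 bases before the start. The *Eomes* window held none of these letters. Among all 32851 promoter windows of the same length, 3.33% held GGTGTGA, 11.8% AGGTGT, 13.8% CTTTGAN, 0.167% GTCTAGAC, 0.718% TGTGGATT and 12.4% TATAAA. A match is a description of the letters and not a binding site. Of the 10 members, 7 had an entry in the promoter table, and *Tbx2*, *Tbx3* and *Tbx5* did not. The RefSeq gene *T* (8 exons) lies at chr17:8434423-8442496 and *Eomes* at chr9:118478186-118486132, both on the + strand. Exon 1 makes up 15.3% of the *T* transcript and 36.6% of the longest *Eomes* transcript. The deposited values cover whole genes, so transcripts of the remaining exons are counted in the KO lines as well.

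The values are FPKM, fragment counts scaled to transcript length and library size, with 1 value per gene and condition. For genes with a single annotated transcript, FPKM multiplied by transcript length moved in equal steps, the worth of 1 fragment. The *Smad4* WT and all KO columns had 1 step size, as 1 library or reads merged before quantification would give, and the F1G4 WT columns had 2, as an average of 2 libraries gives. The depth read from these steps was 18100000 (*T* KO day 2) to 37400000 (*T* KO day 3) fragments for columns with 1 step size and 21800000 to 29000000 for the libraries of the WT time course. As the day 2 and day 3 WT columns occur in 4 tables each, with slightly different weights, the values of both WT libraries could be solved, and they are given for these days as the deeper and the shallower library. Which replicate number each one carries is not known. The labels give 1 sample per KO condition, and its column is called a library here. The legends of the study describe KO values as averages of replicates, so how many cultures a KO column holds is not known. No spread is available for them either way, so there are no tests, and a KO value is read against both WT libraries. Genes with FPKM above 1 in either of the groups compared were examined, and a gene was called higher or lower when the log2 ratio of FPKM was beyond 1. By this rule 7.45% of 11258 genes differed between both WT libraries of day 2 and 10.5% of 11333 between those of day 3. Of the members, 2 of 4 examined differed so on day 2 (*T* 2.1-fold and *Tbx20* 2.71-fold) and 1 of 4 on day 3 (*Tbx6*). The *Eomes* KO library of day 3 and the *T* KO library of day 2 stood apart from the other KO libraries in how many genes they called, 16.4% and 15.6%. Each was the only column of its condition, so no value without it can be given.

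*Pou5f1*, a pluripotency factor, was expressed at 253 to 1000 FPKM in all 14 conditions. The summed FPKM of 8 nascent mesoderm markers (*Mixl1*, *Mesp1*, *Fgf8*, *Wnt3*, *Evx1*, *Lhx1*, *Snai1*, *Lefty2*) was 147 in WT cells on day 3, when 7 of the 8 stood above 1. In ES cells the sum was 75.6, of which *Lefty2* made up 75.1, with 1 of the 8 above 1. On day 2 it was 64.9 with 5 of the 8 above 1. The sum alone therefore does not mark mesoderm. The 8 fibroblast markers summed to between 0.6 and 5.38 FPKM in every condition. In these bulk samples, fewer cells expressing a gene and less RNA per cell cannot be told apart.

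Of the 10 members, 4 (*T*, *Eomes*, *Tbx3* and *Tbx20*) passed FPKM 1 in some of the 14 conditions. The other 6 never did, and the highest column value among them was 0.738, for *Tbx6* in WT cells on day 3. *T* spanned the widest range, from 0.0784 in ES cells to 320 in day 3 WT cells. *Eomes* ran from 0.276 to 24.8, *Tbx3* from 0.106 to 6.51 and *Tbx20* from 0.157 to 1.44. Beyond the members, *Mga*, a large T-box protein that also pairs with Max, was at 16.7 to 47.3 FPKM in all conditions and called in none of the 13 comparisons. The other 6 family genes (*Tbr1*, *Tbx10*, *Tbx15*, *Tbx19*, *Tbx21*, *Tbx22*) stayed at or below 0.97.

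**Figure D1:**
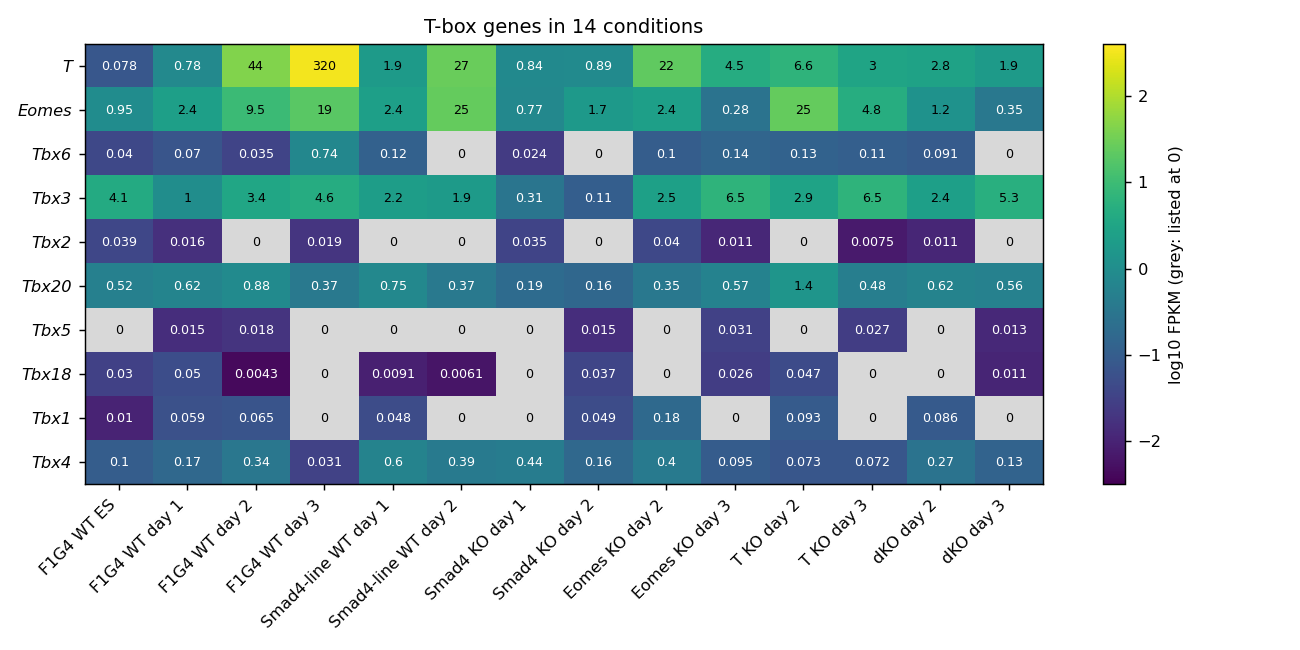
FPKM of the 10 T-box genes (rows) in the 14 conditions (columns), with colour on a log10 scale, the value printed in each cell to 2 digits and grey for a gene listed at 0. *T* reached 320 in day 3 WT cells, while *Tbx2*, *Tbx5* and *Tbx18* stayed near 0 throughout.

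To follow the streak members through differentiation, F1G4 WT cells were compared stage by stage. *T*, the marker of nascent mesoderm, was at 0.0784 FPKM in ES cells (7 to 9 fragments in both libraries together), 0.778 on day 1, 43.5 on day 2 and 320 on day 3. From day 1 to day 2 it was 56.0-fold higher and from day 2 to day 3 a further 7.35-fold. On day 2 the deeper WT library gave 28.1 and the shallower 59.0, and on day 3 they gave 351 and 288. Both day 3 libraries stood above both day 2 libraries, with log2 ratios of 2.29 to 3.64 over the 4 pairings. On day 3 *T* ranked 220 from the top of all genes by FPKM.

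*Eomes*, which acts upstream in mesoderm and definitive endoderm, was at 0.952, 2.38, 9.5 and 19.4 FPKM in ES cells and on days 1, 2 and 3. In ES cells and on day 1 it was therefore the higher of both on this length-scaled measure. The WT libraries gave 10.4 and 8.56 on day 2 and 25.3 and 13.6 on day 3. The day 2 and day 3 libraries did not overlap, but the step between them (log2 1.03 for the columns) ran from 0.38 to 1.56 over the 4 pairings, so its place beyond a log2 ratio of 1 rested on the choice of library.

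*Tbx3*, which supports self-renewal in ES cells, was at 4.07, 1.01, 3.36 and 4.56 FPKM over the same stages. It was 4.04-fold lower on day 1 than in ES cells and 3.34-fold higher again on day 2. The libraries gave 3.53 and 3.19 on day 2 and 5.08 and 4.05 on day 3, a step that was not called (log2 0.44). *Tbx3* was thus at its lowest on day 1, when *T* and *Eomes* were already above their ES levels.

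*Tbx6* was at 0.0401, 0.0703 and 0.0352 FPKM in ES cells and on days 1 and 2, and at 0.738 on day 3. The libraries split this last value into 1.37 (68 fragments, 95% interval of counting 1.06 to 1.73) and 0.110 (5 fragments, 0.0358 to 0.257). The WT libraries of day 3 thus differed 12.4-fold in *Tbx6*, while *T* differed 1.22-fold between them and *Eomes* 1.86-fold. On day 2 the same split gave 0 and 3 fragments.

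*Tbx20*, a cardiac factor, was at 0.520, 0.622, 0.877 and 0.367 FPKM, and its day 2 libraries gave 0.473 and 1.28. *Tbx4* was at 0.100, 0.167, 0.338 and 0.0314 FPKM, and its day 2 value came from libraries at 0.0613 and 0.614. *Tbx1* was highest on day 2 (0.0654) and listed at 0 on day 3. *Tbx2*, *Tbx5* and *Tbx18* stayed at or below 0.0503 FPKM in WT cells, and on days 2 and 3 none of their libraries held more than 4 fragments. The cardiac members were thus at or near 0 through day 3, apart from *Tbx20* and *Tbx3*.

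By the call rule, 2 of 2 examined members were called from ES to day 1 (*Eomes* higher, *Tbx3* lower), where 13.5% of 11028 genes were. *Eomes* was below FPKM 1 in ES cells (0.952), so it could be called only higher. From day 1 to day 2, 3 of 3 were called higher, where 11.3% of genes were called in either direction. *T* was below 1 on day 1 (0.778), so this step could call it only higher. From day 2 to day 3, 2 of 3 were called higher (*T* and *Eomes*) against 10.2% of genes.

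**Figure D2:**
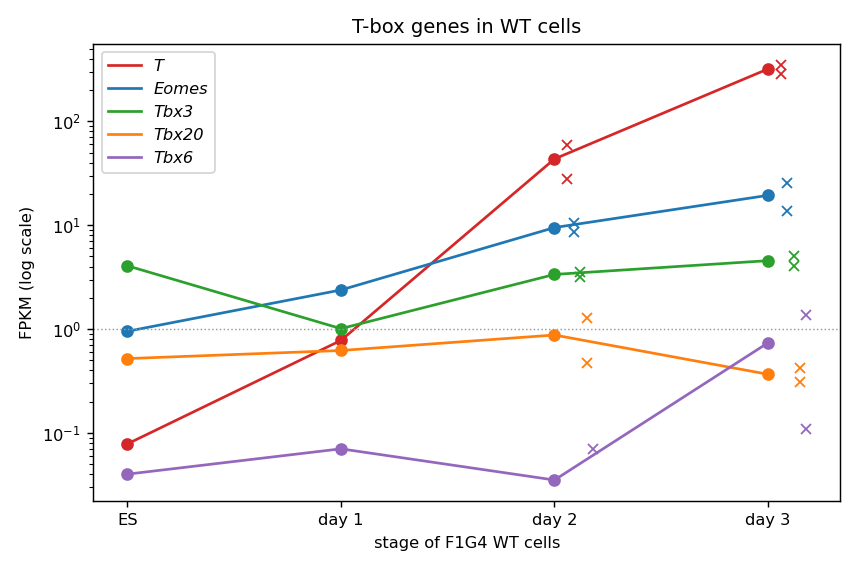
FPKM (log axis) of 5 T-box genes in F1G4 WT cells by stage. Circles and lines are the deposited columns, crosses beside days 2 and 3 are the 2 libraries behind each column where above 0, and the dotted line is FPKM 1. *T* climbs from 0.0784 to 320, and the *Tbx6* crosses of day 3 lie at 1.37 and 0.110.

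To see how far unmodified cells differ between lines, the *Smad4* WT cells were set against F1G4 WT cells of the same day, with the median ratio of all genes scaled to 1. On day 1 *T* was at 1.86 FPKM in the *Smad4* WT cells and 0.778 in F1G4 WT cells, *Tbx3* at 2.19 and 1.01, and *Eomes* at 2.35 and 2.38. *T* and *Tbx3*, 2 of the 3 examined members, were called higher in the *Smad4* WT cells (2.48- and 2.25-fold), as 11.2% of genes were called. As *T* was below FPKM 1 in the F1G4 WT cells, it could be called only higher. On day 2 *Eomes* was at 24.8 FPKM in the *Smad4* WT library and at 10.4 and 8.56 in the F1G4 WT libraries.

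This was 2.63-fold higher than the F1G4 column, and *Eomes* was the 1 of 3 examined members called on day 2, when 5.09% of genes were. *T* was at 26.6 FPKM in the *Smad4* WT library, beside 28.1 and 59.0 in the F1G4 WT libraries. *Tbx3* was at 1.88, below both F1G4 libraries (log2 −0.83 against the column). *T* and *Eomes* were thus nearly level in the *Smad4* WT library of day 2, while *T* stood above *Eomes* in both F1G4 WT libraries.

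*Smad4* KO cells were compared with *Smad4* WT cells because Smad4 is the shared partner of the BMP and Nodal effectors. The FPKM of *Smad4* itself was 39.4 and 46.8 in the KO on days 1 and 2 and 33.8 and 39.3 in the *Smad4* WT cells. A whole-gene value does not report on a loss of exon 1 and checks the label in neither direction. On day 1 *T* was at 1.86 FPKM in the WT library and 0.839 in the KO library (90 and 41 fragments, with counting intervals of 1.50 to 2.29 and 0.602 to 1.14). On day 2 these were 26.6 and 0.891 (1918 and 63 fragments, 25.4 to 27.8 and 0.685 to 1.14), 29.9-fold lower.

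*T* was therefore close to its day 1 level in the KO on day 2, whereas it had gone up in the WT. *Eomes* was at 2.35 (WT) and 0.767 (KO) FPKM on day 1, and at 24.8 and 1.73 on day 2 (14.3-fold lower). *Tbx3* was at 2.19 and 0.307 on day 1, and at 1.88 and 0.106 on day 2 (17.7-fold lower). Of the 3 members called, *Tbx3* had the lowest KO to WT ratio on day 1 and *T* on day 2.

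All 3 examined members were called lower on each day, where 4.77% of all genes were called on day 1 and 5.77% on day 2. In the KO all 3 were below FPKM 1 on day 1, and *T* and *Tbx3* on day 2 too. There they could be called only lower, and *Eomes* on day 2 was the one member free to be called either way. On day 2 *T* held place 8, *Tbx3* place 18 and *Eomes* place 24 among 353 lower genes ordered by ratio. *Tbx20*, not examined as it was below 1 in all 4 columns, was at 0.748 and 0.191 on day 1 and 0.366 and 0.157 on day 2, each time WT first. *Tbx4* was at 0.605 and 0.438 on day 1 and at 0.390 and 0.164 on day 2. No spread is available for these columns, and on day 1 the KO value of *T* (0.839) was close to that of F1G4 WT cells (0.778), so that the day 1 ratio of *T* turned to log2 0.11 with F1G4 WT cells as the reference.

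In the KO on day 2 the 8 nascent mesoderm markers summed to 2.78 FPKM against 58.3 in the WT (2 and 5 of the 8 above 1, *Mesp1* at 0 in the KO and *Lhx1* in the WT). The 6 neural markers (*Sox1*, *Pax6*, *Sox3*, *Neurog2*, *Nes*, *Hes5*) summed to 77.5 against 32.9 (mostly *Nes* at 58.1 and 30, with 4 and 2 of the 6 above 1 and none at 0). Their part in the T-box values was not tested.

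In the *Eomes* KO, the *T* KO and the dKO the targeted genes were examined first. *Eomes* was at 2.42 FPKM on day 2 and 0.276 on day 3 in the *Eomes* KO, against column values of 9.42 and 20.3 in the WT of the same tables. In the dKO it was at 1.24 and 0.346. On each day these values lay below both WT libraries. *T* was at 6.64 and 3.00 FPKM in the *T* KO on days 2 and 3 and at 2.77 and 1.93 in the dKO, against 44.8 and 323 in the WT of the *T* KO tables. They too lay below both WT libraries.

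The untargeted partner was then compared. In the *Eomes* KO *T* was at 22.3 FPKM on day 2 (1294 fragments, 21.1 to 23.6), with the WT libraries at 28.1 and 58.0 on the scale of that table. It lay below both, but only 1.93-fold below the column and by log2 −0.33 below the deeper library, and it was not called. On day 3 *T* was at 4.46 (223 fragments, 3.9 to 5.09) against 364 and 304, 74.8-fold below the column. Between days 2 and 3 the *T* value thus went down in the *Eomes* KO cells, while it went up in WT cells.

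*Eomes* in the *T* KO was at 24.7 FPKM on day 2, above both WT libraries (10.9 and 8.74), and called higher at 2.52-fold. It was the only member called higher in any KO. The *Smad4* WT library of the same day was at 24.8, so the *T* KO value matched unmodified cells of the other line, and no call was made with those cells as the reference (log2 −0.0048). On day 3 *Eomes* was at 4.83 in the *T* KO, against WT libraries of 25.4 and 13.8, 4.06-fold below the column.

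In the dKO *T* was at 2.77 FPKM on day 2 (145 fragments, 2.33 to 3.26) and 1.93 on day 3 (80 fragments, 1.53 to 2.40). The counting intervals did not overlap those of the *T* KO (5.84 to 7.53 on day 2 and 2.63 to 3.42 on day 3), although they cover counting error only and each line gave 1 column per day. *Eomes* was at 1.24 in the dKO and 2.42 in the *Eomes* KO on day 2, and at 0.346 and 0.276 on day 3. On day 3 *T* decreased in the order *Eomes* KO, *T* KO and dKO, and *Eomes* in the order *T* KO, dKO and *Eomes* KO, where the last pair differed by 26 and 25 fragments.

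**Figure D3:**
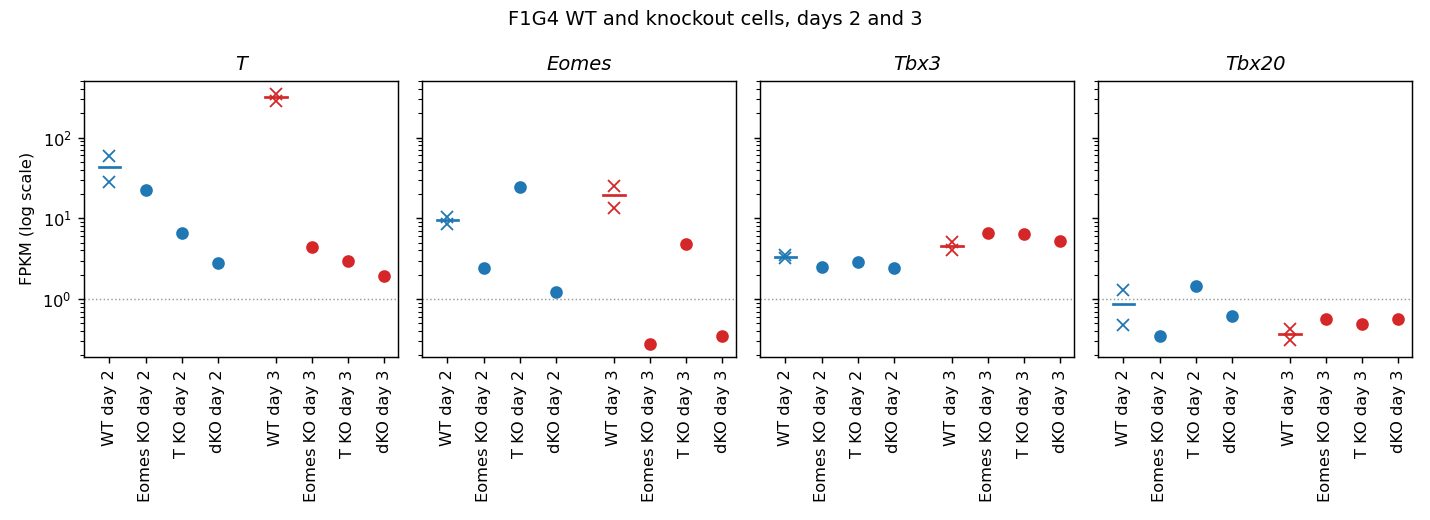
FPKM (log axis) of *T*, *Eomes*, *Tbx3* and *Tbx20* in F1G4 cells on days 2 (blue) and 3 (red). For WT, crosses are the 2 libraries on the scale of the time course table and the short line is their deposited mean, each circle is the KO column, and the dotted line is FPKM 1. On day 3 all KO values of *T* and *Eomes* lie below both WT crosses, and on day 2 *Eomes* in the *T* KO (24.7) lies above both.

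*Tbx3* was not called in any of these lines. On day 2 it was at 2.51 FPKM in the *Eomes* KO, 2.9 in the *T* KO and 2.42 in the dKO, each below both WT libraries, with log2 ratios of −0.16 to −0.54. The *Smad4* WT library of day 2 (1.88) lay below all 3, so the direction turned with that reference. On day 3 it was at 6.51, 6.47 and 5.28, each above both WT libraries by log2 0.01 to 0.66. Of all genes examined in these lines, 34.7% to 39.9% lay below both on day 2 and 30.2% to 36.9% above both on day 3. In the lines without *Eomes* or *T*, *Tbx3* thus stayed within a log2 ratio of 1 of the WT, whereas it was 17.7-fold lower in the *Smad4* KO on day 2.

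*Tbx6* on day 3 was at 0.143 FPKM in the *Eomes* KO (6 fragments, 0.0526 to 0.312) and 0.109 in the *T* KO (7 fragments, 0.0439 to 0.225). In the dKO it had 0 fragments, where 3 fragments would give 0.0864 FPKM. The intervals of the *Eomes* KO and the *T* KO lay below that of the deeper WT library (1.06 to 1.73) and overlapped that of the shallower one (0.0358 to 0.257). The *Tbx6* values of the KO lines could therefore not be told from one of both WT libraries at this depth.

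**Figure D4:**
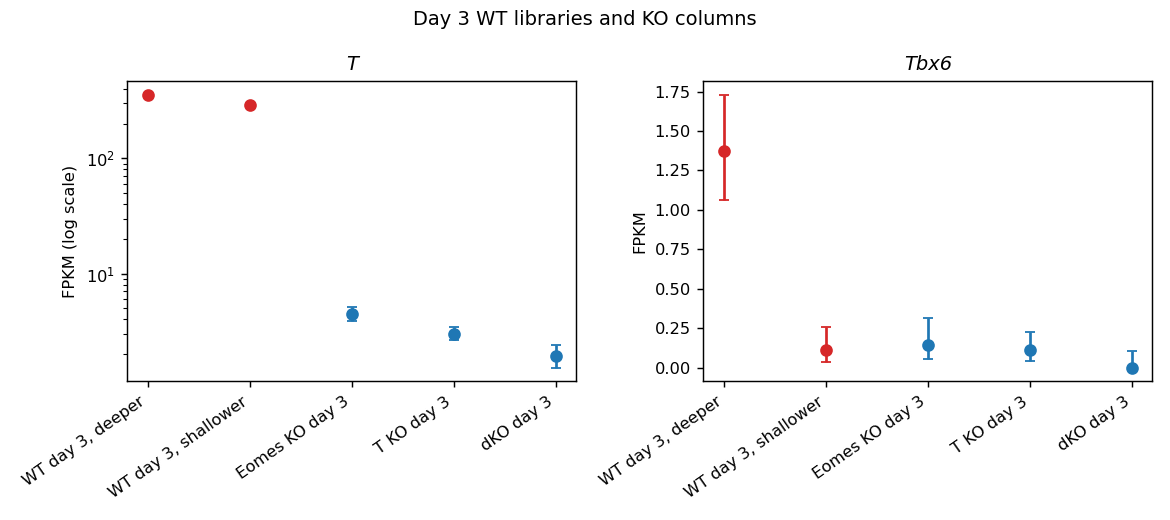
FPKM of *T* (left, log axis) and *Tbx6* (right, linear axis) on day 3, the WT libraries in red and the KO columns in blue. Bars are exact Poisson 95% intervals of the fragment counts and cover counting error only. *T* is between 1.93 and 4.46 in the KO lines against 288 and 351 in the WT libraries, while *Tbx6* is at 1.37 in one WT library and at 0.110 in the other.

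*Tbx20* was at 1.44 FPKM in the *T* KO on day 2, the one condition where its column passed 1, and there the WT libraries were at 0.493 and 1.31 on the scale of that table. It was at 0.351 and 0.616 in the *Eomes* KO and the dKO on day 2. On day 3 it was at 0.572, 0.485 and 0.561 in the *Eomes* KO, the *T* KO and the dKO, all above both WT libraries and all below 1. Of all genes examined, 36.9%, 30.2% and 34.8% lay above both there. The *Tbx20* values rested on 20 to 90, 26 to 117 and 16 to 73 fragments, depending on the annotated transcript taken, and have no counting interval. *Tbx4* lay between 0.0722 and 0.399 in these lines, and *Tbx1*, *Tbx2*, *Tbx5* and *Tbx18* between 0 and 0.178.

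By the call rule, the *Eomes* KO had 1 of 3 examined members called on day 2, where 7.52% of all genes were called, and 2 of 3 on day 3, where 16.4% were. The *T* KO had 2 of 4 called on day 2 (*T* lower, *Eomes* higher) against 15.6% of genes, and 2 of 3 on day 3 against 6.04%. The dKO had 2 of 3 called on day 2 against 7.99%, and 2 of 3 on day 3 against 11%. These counts include the targeted genes themselves, *Eomes* in the *Eomes* KO and *T* in the *T* KO on each day. Both dKO calls on each day were of its targeted genes. The calls of an untargeted member were *T* in the *Eomes* KO on day 3 and *Eomes* in the *T* KO on each day. The counts beside the shares of all genes are therefore largely calls of the targeted genes. Whole-gene values include the remaining exons, so these calls do not check the deletions. On day 3 *Eomes* was below FPKM 1 in the *Eomes* KO (0.276) and the dKO (0.346), where it could be called only lower. These tables share their WT libraries. In all, 17 calls were made over the 8 KO comparisons, 16 lower and 1 higher.

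All 11 calls in the *Eomes* KO, the *T* KO and the dKO, those of the targeted genes included, were also made against each WT library alone. By this stricter rule *Eomes* was called in the *Eomes* KO on day 2, where 4.31% of genes were. *T* and *Eomes* were called in the *Eomes* KO on day 3 (10.1% of genes), in the *T* KO on day 2 (10.1%) and day 3 (3.15%), and in the dKO on day 2 (4.24%) and day 3 (6.77%). Ordered by ratio, *T* held place 4 of 634 lower genes in the dKO and place 9 of 441 in the *T* KO on day 3, where exons outside the deletion are still counted. In the *Eomes* KO on day 3, where *T* was not targeted, it held place 16 of 1048, next to *Eomes* itself at place 17.

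**Figure D5:**
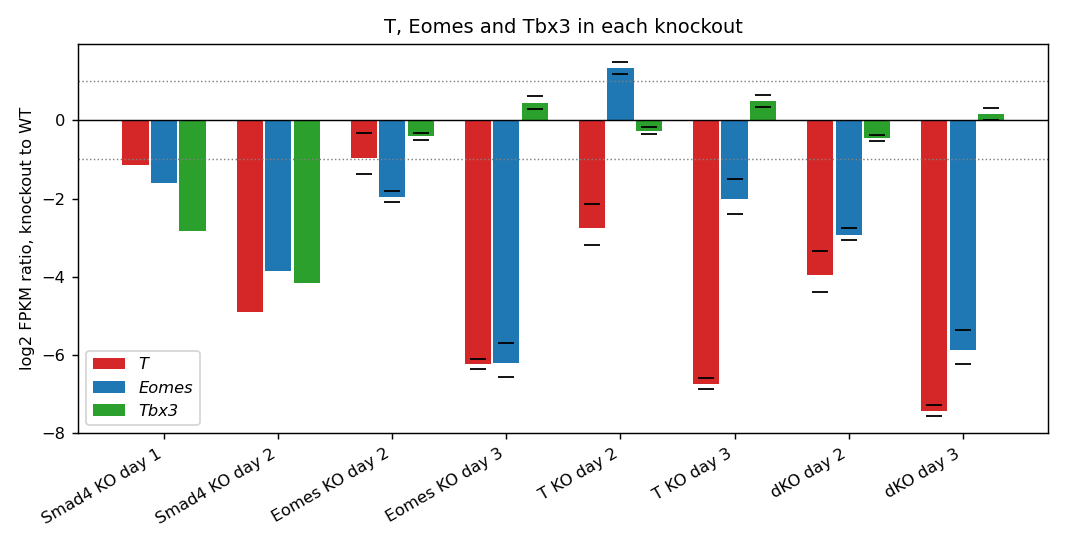
log2 ratio of KO to WT FPKM for *T*, *Eomes* and *Tbx3* in the 8 KO tables (bars), with the ratios against each of the 2 WT libraries as short black lines where these were solved and dotted lines at log2 1 and −1. *Tbx3* passes −1 in the *Smad4* KO and in no other line, and *Eomes* passes 1 in the *T* KO on day 2.

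The genes around the T-box factors were summarised from lists. Of 16 known targets and partners of *T*, *Eomes* and *Tbx6*, 12 were examined from day 2 to day 3 in WT cells and 11 were called higher, with a median log2 ratio of 2.72 over all 16 (pseudocount 0.1) against 0.01 over all genes examined. On day 3, 11 of 12 were called lower in the *Eomes* KO, in the *T* KO and in the dKO, with medians of −3.99, −2.94 and −3.09, where all examined genes had medians of −0.04, −0.01 and −0.03 and 16.4%, 6.04% and 11% of them were called. *Msgn1*, a factor of presomitic mesoderm, was at 21.6 FPKM in day 3 WT cells and listed at 0 in all 3 KO lines, as was *Mesp1*, a factor of cardiac progenitors (5.45 in the WT). *Mesp1*, *Msgn1*, *Lhx1* and *Wnt3a* passed FPKM 1 only in WT cells of day 3. They could therefore be called only higher in the stage step and only lower in the KO lines. *Foxa2* and *Dll1* were below 1 on day 2 too (0.51 and 0.593 FPKM), so that step could call them only higher. On day 3 *Mixl1* was below 1 in all 3 KO lines (0.0179 to 0.173), *Foxa2* in the *Eomes* KO and the dKO and *Dll1* in the *T* KO. There they could be called only lower. The stage step and the KO comparisons also share the WT libraries of day 3, so they are not separate results.

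The lists of calls were not the same in the lines. *Foxa2*, an endoderm and midline factor, was at 0.0791 FPKM in the *Eomes* KO, 0.310 in the dKO and 2.80 in the *T* KO, against 4.50 in WT cells, and was not called in the *T* KO. *Dll1*, a Notch ligand, was called in the *T* KO (0.608 FPKM) and not in the *Eomes* KO (1.29) or the dKO (1.24), against 1.84 in WT cells. These differences between lines were not tested.

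Of the 10 upstream signals and their partners, 7 were called lower in the *Eomes* KO on day 3, 5 in the *T* KO and 5 in the dKO, of 10 examined in each, beside 16.4%, 6.04% and 11% of all genes called in either direction. *Fgf4* was called higher in the *T* KO and *Gdf3* in the dKO. *Fgf8* and *Wnt3a* are in this list and in that of the targets, and *Wnt3a* could be called only lower here too. *Nodal*, the ligand that induces *Eomes*, was at 8.31 FPKM in the *Eomes* KO, 37.1 in the *T* KO and 17.8 in the dKO on day 3, with WT cells at 30.8. *Wnt3*, the streak WNT ligand, was at 3.00, 7.47 and 9.72 with WT cells at 25.0. In the *Smad4* KO on day 2, 4 of 8 examined were called lower, *Nodal* (2.53 against 32.4 FPKM), *Wnt3*, *Fgf8* and *Tdgf1*. So were 5 of 5 examined targets, of which *Fgf8* is counted in both lists, against 5.77% of all genes. *Fgf8* (0.154 FPKM) and the target *Mixl1* (0.0506) were below 1 in this KO, so they could be called only lower.

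Of the 10 partners and targets of *Tbx5* and *Tbx20*, 3 were examined on day 3 in each line and *Isl1* and *Myl7* were called lower in all of them. *Isl1* was above FPKM 1 on day 3 in the WT alone (1.31), so it could be called only lower. *Hand1*, the third, was at 62.9 FPKM in the *Eomes* KO (called higher), 29.5 in the *T* KO and 32.2 in the dKO, with WT cells at 20.5. On day 3 the 8 nascent mesoderm markers summed to 10.8, 39.4 and 51.5 FPKM in the *Eomes* KO, the *T* KO and the dKO (3 of 8 above 1 in each, *Mesp1* at 0). The highest of them was *Lefty2* in the *Eomes* KO (6.07) and the dKO (30.3) and *Fgf8* in the *T* KO (16.8). The 6 trophoblast markers (*Elf5*, *Gcm1*, *Cdx2*, *Gata3*, *Tfap2c*, *Krt7*) summed to 61.6 FPKM in the WT and to 79.6, 94.3 and 123 in the KO lines, mostly *Krt7*, with 2 to 4 of 6 above 1 and *Elf5* at 0 except in the *T* KO. Their part in the T-box values was not tested.

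The genes with the pattern most like each member were found by Pearson's r of log2(FPKM + 1) over the 14 conditions among 9284 genes above FPKM 5 in at least one. These conditions share WT libraries, lines and days, and they include the KO columns in which *T* or *Eomes* was targeted, so r is a description. For *T* they were *Tmem185a* (r = 0.909), *Rtl8c* (0.904), *Alox15* (0.891), *Tasp1* (0.880) and *Crot* (0.878). For *Eomes* they were *Sp5* (0.886), *Slc16a10* (0.828), *Nmt2* (0.819), *Fam49a* (0.818) and *Apln* (0.814). For *Tbx3* they were *Arhgap42* (0.907), *Fam76a* (0.894), *Tex264* (0.888), *Rab33b* (0.871) and *Peg10* (0.863). By rank (Spearman's rho) the values were 0.789 to 0.916 for the genes of *T*, 0.684 to 0.829 for those of *Eomes* and 0.837 to 0.921 for those of *Tbx3*. No member was among the nearest 5 of another.

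*Tbx3* and *Tbx5* lie 112 kb apart on chromosome 5, and in WT cells of day 3 *Tbx3* was at 4.56 FPKM with *Tbx5* listed at 0. *Tbx2* and *Tbx4* lie 44.4 kb apart on chromosome 11, and in the same cells *Tbx2* was at 0.0193 and *Tbx4* at 0.0314, both near 0.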

How the data were processed

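RNA-seq of 18 mouse samples was analysed from 9 deposited tables of FPKM, with 1 value per gene and condition. The authors trimmed reads with cutadapt 2.9, aligned them with HISAT2 2.1.0 to mm10 and computed FPKM with Cuffdiff 2.2.1 on the refSeq annotation. The strand setting of the counting is not given in the sources used here, so antisense transcripts at *Eomes*, *Tbx3* and *Tbx18* may be counted with them. Columns hold no SD or n. From the FPKM, log2 ratios were taken within a table without a pseudocount, with the call rule of the study's methods (FPKM above 1 in at least one group, log2 ratio beyond 1). A gene above 1 in one group and at 0 in the other counted as called with no ratio.

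The depth was read from whole-number steps of FPKM times transcript length (RefSeq, GRCm38.p6). In the columns with 1 step size, 94.1% to 95.4% of 1212 to 1808 low genes (below 8 steps) lay within 0.05 of a whole number. The WT libraries of days 2 and 3 were solved by least squares from 4 tables each, and 90.1% and 89.2% of genes below 200 fragments came out within 0.05 of whole fragments in both libraries. Intervals are exact Poisson at 95% and cover counting error only. The depths are the scale factors of FPKM, after any scaling between libraries by the authors' tool. The study's methods call the replicates biological, and what they were separate in is not given in the sources used here.

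All 10 members were named in every condition, of the other family genes those above FPKM 1, and of the lists only genes a result turned on. *Foxa2*, *Dll1*, *Nodal*, *Wnt3*, *Msgn1*, *Mesp1* and *Hand1* were chosen after their values were seen. The members and lists were chosen with earlier results of these data known. The steps were tested on simulated data with 200 changed genes. Calculations and plots were made in Python 3.11.15 with pandas 2.3.3, numpy 2.4.6, matplotlib 3.10.9 and scipy 1.17.1.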

Additional observations from a re-analysis of the deposited data

Results flagged for a closer look

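*Eomes* in the *T* KO was called in opposite directions on both days, with log2 ratios of 1.33 on day 2 and −2.02 on day 3. On day 2 it was at 24.7 FPKM against WT libraries of 10.9 and 8.74, and on day 3 at 4.83 against 25.4 and 13.8. The difference between the days was not tested, as each day has 1 *T* KO column. The *T* KO library of day 2 was the shallowest (18100000 fragments) and called 15.6% of all genes. The *Smad4* WT library of day 2 held *Eomes* at 24.8 FPKM. Their part in the result was not tested.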

How the results depend on the processing

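No paired analysis was possible because each deposited column pools its condition and the KO conditions have 1 column each. The limits are the single KO columns, the unknown strand setting and low counts. Below FPKM 1 a member can rest on few fragments, such as 7 for *Tbx6* in the *T* KO on day 3. *Eomes* at 0.952 FPKM in ES cells still had 152 to 198. Of 346 member ratios recomputed under the alternatives, 320 kept their side of the call, 19 lost a call, 5 gained one and 2 called ratios turned sign. The latter were *T* in the *Smad4* KO on day 1 (log2 0.11 with F1G4 WT cells as the reference) and *Eomes* in the *T* KO on day 2 (−0.0048 with the *Smad4* WT cells, a reference chosen after seeing the data). Of the 320, 5 uncalled ratios also changed sign: *Tbx3* in the *Eomes* KO, the *T* KO and the dKO on day 2 (log2 0.42, 0.63 and 0.36 with the *Smad4* WT cells, against −0.41, −0.26 and −0.46), and *Eomes* between the WT lines on day 1 as deposited FPKM and as TPM. Without an FPKM minimum the number of members called was 8, 8, 7, 6, 6, 6, 6 and 7 in the KO tables (in the order *Smad4*, *Eomes*, *T*, dKO, earlier day first; 54 in all and 38 in the *Eomes*, *T* and dKO tables, against 17 and 11), and 6, 6 and 9 over the stage steps (21 against 7), where more low genes enter by construction. With a minimum of 5 it was 0 in the *Smad4* KO on day 1 and 0 from ES to day 1 (4 over all steps). With a pseudocount of 1 it was 1 in the *Smad4* KO on day 1, 1 from ES to day 1, 1 from day 2 to day 3, and 0 on day 1 between the WT lines (1 on both days, against 3). Beyond a log2 ratio of 1.5 it was 1 in the *T* KO on day 2, 1 from ES to day 1 and 1 from day 2 to day 3. As TPM it was 2 in the *Eomes* KO on day 2 (*T* log2 −1.16), where TPM moved the median of all genes by −0.23. Scaling to TPM moved it by up to −0.41 (dKO on day 2) and changed no other call of a member.

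With either WT library alone (recovered after seeing the data), the number called in the *Eomes* KO on day 2 was 1 to 3 (*T* log2 −1.38 and *Tbx20* −1.84 against the shallower library). From day 2 to day 3 it was 1 to 3. *Tbx6* entered without the shallower day 3 library (1.37 FPKM) and *Tbx20* without the deeper day 2 library (1.28), and *Eomes* was not called without the shallower day 2 library (log2 0.90) or the deeper day 3 library (0.52). Between the WT lines on day 2 it was 1 to 3 (3 to 5 over both days, *T* log2 −1.14 without the deeper library).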
